A study of Mus musculus with 9 samples.

Results

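Genes that bring fatty acids into fat cells, 8 in number, were followed across 9 primary cultures of mouse brown adipose tissue, a depot that burns fuel to make heat. The set of 8 was chosen by name, for known roles in lipoprotein hydrolysis, fatty acid uptake and binding of fatty acids inside the cell, and each gene was read from its brightest probe set that carries a single gene symbol. All 8 had such a probe set, out of 19858 genes that had one, and all 8 lay at or above the intensity level used for testing, as did 13335 genes in all.

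The cells came from interscapular brown fat of male C57BL/6 mice aged 5 weeks. A precursor-enriched fraction was plated and differentiated under insulin in rising doses, which all groups received, and was collected at about day 9. Each group held 3 cultures, numbered by subject: subjects 1 to 3 received the vehicle DMSO, subjects 4 to 6 received 2.5 µM of HA155, an inhibitor of autotaxin, and subjects 7 to 9 received 5 µM of lysophosphatidic acid (LPA) in its 1-oleoyl form. Autotaxin is the secreted enzyme that makes LPA, so the design sets less of the enzyme's activity and more of its product against the same vehicle. The design text places the compounds during differentiation and the sample labels at 9 days in vitro, and how long the cells were exposed remains unclear. As a model, these are cells grown outside the animal, without blood flow, and RNA was taken from whole dishes, which can hold precursor and other cells beside adipocytes. In such bulk samples, fewer cells of a type and less RNA per cell cannot be told apart.

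Fat cells take most of their fatty acids from triglyceride in circulating lipoproteins. Lipoprotein lipase, made by the adipocyte, is carried across capillary endothelium by GPIHBP1 and cuts the triglyceride at the vessel wall. CD36 and the fatty acid transport proteins take the released fatty acids into the cell, and the fatty acid binding proteins carry them to lipid droplets, mitochondria and the nucleus. In brown fat this supply feeds heat production, and several of the genes are textbook targets of PPARγ, the adipocyte transcription factor.

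Levels are given as log2 of the deposited array intensity, so that a difference of 1 is a doubling, and 9 arrays limit the precision. The LPA arrays stood apart from the others on the first principal component, which held 66.7% of the variance. LPA array 8 was the most distant (mean correlation with the other arrays 0.972, against 0.981 to 0.989 for the rest), so the members' calls with LPA are also given without it. Adipocyte markers were present: adiponectin (Adipoq) and perilipin (Plin1) averaged 11.7 and 11.9 in control. Of 9 markers of brown fat, 5 lay at or above the testing level of 5.59: Ebf2 (control mean 8.96), Cox7a1 (8.78), Cox8b (8.27), Zic1 (7.00) and Prdm16 (6.87). The uncoupling protein gene Ucp1 lay at 5.22 in control, below that level. The means over all arrays of Cidea, Dio2 and Elovl3 were below it too, although Cidea reached 6.39 on average with HA155 against 4.92 in control (adjusted p = 0.00108 in the limma fit without an intensity filter). The defining marker Ucp1 was therefore below the testing level in cultures labelled brown adipose.

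LPA lowered 5 of the 8 genes. Cd36 fell most, to 40.9% of its control intensity, followed by Slc27a1 (55.9%), Fabp5 (61.5%), Fabp4 (63.5%) and Lpl (76.3%). Slc27a4, Gpihbp1 and Fabp3 did not pass the test, and none of the 8 rose. In the same fit 10.8% of all 13335 genes tested fell and 12.2% rose (limma, adjusted p below 0.05), 23% in all. The median log2 difference of the 8 genes was -0.52, and that of all genes tested was 0.01. Of the 8 genes HA155 raised only Cd36, to 124% of control, where 0.607% of all genes rose and 1.03% were called in either direction. This call was lost in 9 of 18 alternative fits, including each fit that left out a control or HA155 array. The comparisons with LPA and with HA155 share the 3 control arrays, so the values of each are given side by side and their opposite signs are not independent. Between LPA and HA155, a comparison that reuses the LPA arrays, the same 5 genes were lower (12.4% of all genes were lower and 26.1% called), and the groups did not overlap for 38.7% of all genes. With LPA array 8 left out, 5 of the 8 still fell against control, by the same test.

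**Figure D1:**
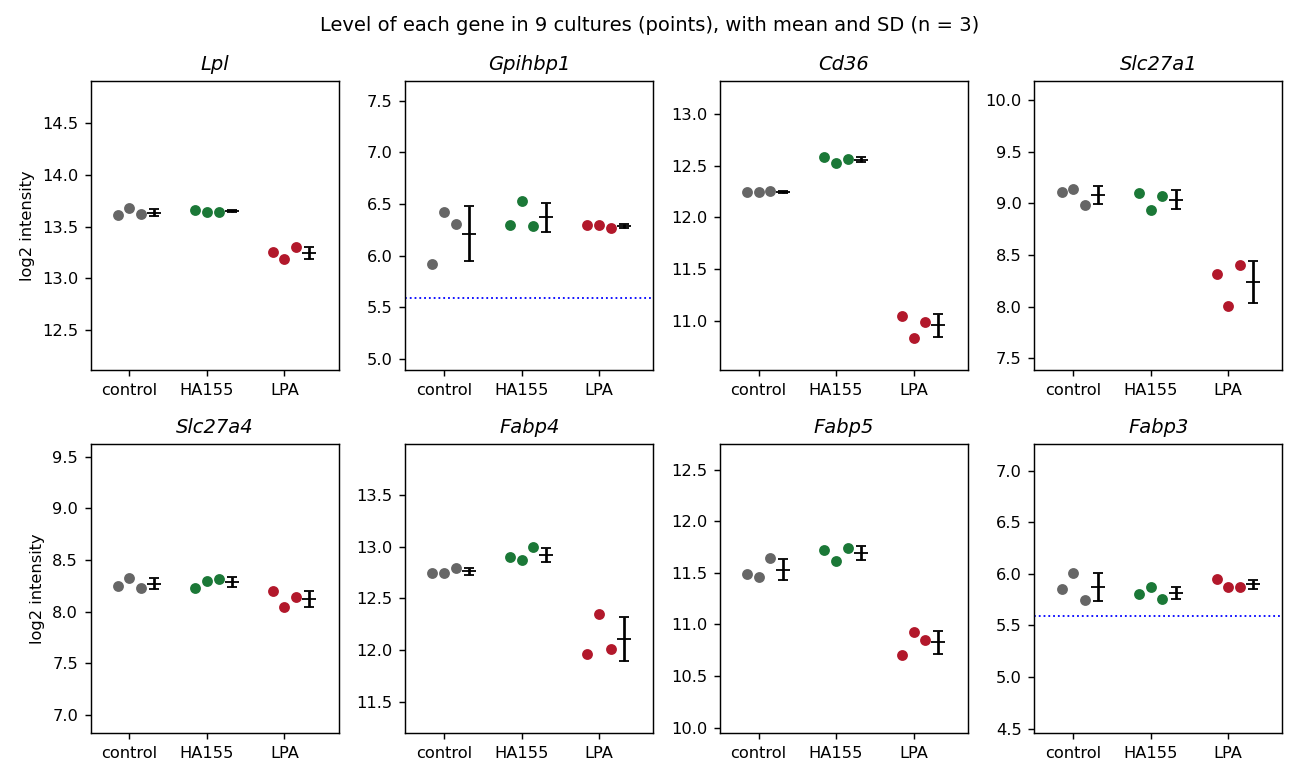
Log2 intensity of the 8 genes in each of the 9 cultures, in panels that all span 2.8 log2 units, with the mean and SD of each group beside its 3 points; the dotted line is the testing level of 5.59. Cd36, Slc27a1, Fabp4, Fabp5 and Lpl lie lower in all 3 LPA cultures than in any other culture, and Gpihbp1 and Fabp3 lie close to the testing level in every group. LPA and control did not overlap for 33.1% of all genes tested.

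Lpl encodes lipoprotein lipase, the enzyme that releases fatty acids from triglyceride-rich lipoproteins. It measured 13.61, 13.68 and 13.62 in the control cultures, 13.66, 13.65 and 13.64 with HA155, and 13.25, 13.18 and 13.30 with LPA. The LPA cultures were the 3 lowest, and the control and HA155 values overlapped. For 33.1% of all genes tested LPA and control did not overlap, a share that stands beside each such separation below. Lpl fell by 0.39 on the log2 scale with LPA (SE 0.06, limma adjusted p = 0.000412), the smallest fall among the 5 genes called. With HA155 the difference was 0.01 (95% interval -0.11 to 0.13, adjusted p = 0.987), so a change of the size seen with LPA lay outside the interval. Without LPA array 8 the fall with LPA was 0.36.

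Gpihbp1 encodes the endothelial protein that binds lipoprotein lipase and moves it to the capillary lumen. The control cultures measured 5.92, 6.42 and 6.30, the HA155 cultures 6.30, 6.53 and 6.28, and the LPA cultures 6.30, 6.30 and 6.27. The groups overlapped, and control culture 1 was the lowest of all 9. The difference was 0.07 with LPA (95% interval -0.18 to 0.33, limma adjusted p = 0.699) and 0.16 with HA155 (-0.10 to 0.41, adjusted p = 0.881). Without control culture 1 the difference with LPA became -0.07, so its sign is not settled. No detection call was used, so how much of these levels is background was not measured.

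Markers of endothelial cells, where Gpihbp1 is normally made, were mixed. Of 14 listed, 9 lay at or above the testing level, among them Eng (control mean 8.66), Egfl7 (7.31), Tek (7.29), Sox18 (7.07) and Cldn5 (6.63). The other 5 lay below it, among them the endothelial adhesion gene Pecam1 (control mean 5.45) and the VEGF receptor gene Kdr (5.34), as well as Emcn, Erg and Sox17. Cdh5, which encodes endothelial cadherin, averaged 5.58 in control and differed by 0.17 with LPA (limma adjusted p = 0.313). The summed intensity of the 14 ran from 1340 to 1386 in control, 1245 to 1320 with HA155 and 1460 to 1535 with LPA. Eng, the brightest of the 14, weighs most in this sum, and it averaged 8.66 in control and 9.12 with LPA. The higher sum with LPA therefore does not show a rise across the list. Of the 9 tested with LPA, 2 rose, Tek (0.37) and Eng (0.46), and Sox18 fell (-0.47). Of all genes tested 12.2% rose and 10.8% fell, so these counts are near the background. The Sox18 call was lost in 4 of 18 alternative fits, including those without control array 2, control array 3 or LPA array 8. With HA155 none of the 9 passed in limma (1 at an unadjusted p below 0.05, median -0.09). The part of endothelial cells in the Gpihbp1 values was not tested.

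Cd36 encodes the fatty acid translocase of the plasma membrane, and it was the gene that moved most. Its control values were 12.24, 12.24 and 12.25, 2 of them identical. The HA155 cultures measured 12.59, 12.53 and 12.56, and the LPA cultures 11.05, 10.83 and 10.99. The 3 groups did not overlap, with HA155 highest and LPA lowest; groups did not overlap for 33.1% of all genes between LPA and control and for 16.8% between HA155 and control. Cd36 fell by 1.29 with LPA (SE 0.06, limma adjusted p = 3.8e-07, 2.44-fold) and by 1.23 without LPA array 8. It rose by 0.31 with HA155 (SE 0.06, adjusted p = 0.0485), which is a narrow call. That call was kept in 9 of 18 alternative fits and lost in the other 9 (adjusted p from 0.00383 to 0.232). It was lost on leaving out any array of either group, and also without LPA array 9 (adjusted p = 0.0636). The size of the difference stayed between 0.29 and 0.33 in all 18. Between LPA and HA155 Cd36 differed by -1.60 (adjusted p = 5.01e-08).

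The upstream sequences of Cd36 and of the transport protein genes Slc27a1 and Slc27a4 are shown because Cd36 moved most and because these relatives in the Slc27a family moved unequally. They are RefSeq sequences of build GRCm38.p6, read on the gene's strand and ending just before a listed transcript start, except that Slc27a1 is cut where the gene begins. Capitals mark matches, on either strand, to the nuclear receptor core AGGTCA, to CCAAT or to the GC box GGGCGG. The table held a sequence for 4 of the 8 genes, these 3 and Fabp3.
Cd36, chr5:17835897-17836146, minus strand: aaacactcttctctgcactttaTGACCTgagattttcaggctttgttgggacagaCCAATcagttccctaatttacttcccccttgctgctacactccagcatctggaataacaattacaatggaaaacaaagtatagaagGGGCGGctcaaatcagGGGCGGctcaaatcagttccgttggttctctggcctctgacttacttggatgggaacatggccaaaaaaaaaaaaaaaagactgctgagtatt
Slc27a1, chr8:71568621-71568727, plus strand: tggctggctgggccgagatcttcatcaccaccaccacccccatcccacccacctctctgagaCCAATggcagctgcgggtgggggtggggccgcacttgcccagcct
Slc27a4, chr2:29802384-29802633, plus strand: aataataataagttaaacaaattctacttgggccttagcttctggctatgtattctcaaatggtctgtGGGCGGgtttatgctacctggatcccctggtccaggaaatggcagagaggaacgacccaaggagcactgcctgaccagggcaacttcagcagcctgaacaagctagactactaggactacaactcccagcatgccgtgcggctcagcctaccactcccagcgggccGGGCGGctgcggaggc

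In these windows of 250 bases, Cd36 held a nuclear receptor core on the reverse strand 228 bases before the start, CCAAT at 195 bases, and GC boxes at 109 and 93 bases inside a short repeat. Slc27a4 held GC boxes at 182 and 16 bases, and neither of the other motifs. Slc27a1 has 3 windows: the first, of which the printed stretch is the part before the gene, held CCAAT at 188 bases, the second held a GC box at 139 bases, and the third held CCAAT at 128 bases and GC boxes at 159, 48 and 17 bases. Fabp3 held none of the motifs searched. AGGTCA occurs in 14% of 32851 windows of this length, CCAAT in 33.8% and GGGCGG in 32.7%, and TATAAA, which none of the 4 genes held, in 12.4%. The core repeated directly with 1 base between the copies, the classical PPAR element, which also counts as a match to the core, was found in 11 of the 32851 windows and in none of these genes. The Cd36 window belongs to 1 of several starts, since the RefSeq gene begins upstream of it. A match of letters is a description of the sequence and shows no binding.

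Slc27a1 encodes FATP1, an insulin-responsive fatty acid transport protein of muscle and fat that also activates fatty acids to acyl-CoA. It measured 9.11, 9.14 and 8.98 in control, 9.10, 8.93 and 9.07 with HA155, and 8.31, 8.01 and 8.40 with LPA. The LPA cultures lay below all others, and the control and HA155 cultures overlapped. It fell by 0.84 with LPA (SE 0.10, limma adjusted p = 0.000105) and by 0.72 without LPA array 8, where it was lowest. With HA155 the difference was -0.04 (95% interval -0.26 to 0.17, adjusted p = 0.981).

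Slc27a4 encodes FATP4, a relative found in many tissues. It measured 8.25, 8.33 and 8.23 in control, 8.23, 8.30 and 8.32 with HA155, and 8.20, 8.04 and 8.14 with LPA. The LPA cultures were the 3 lowest, by a narrow margin. The difference of -0.14 with LPA did not pass (95% interval -0.28 to -0.01, limma adjusted p = 0.13), nor did 0.01 with HA155 (adjusted p = 0.987). Between LPA and HA155 it was -0.16 (adjusted p = 0.0912).

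Whether the relatives moved by unequal amounts was tested on the difference of their log2 values within each culture, over the 3 groups, by an exact permutation test on all 1680 assignments of the 9 arrays (smallest possible p = 0.00357), adjusted over 4 pairs. Slc27a4 minus Slc27a1 measured -0.81 ± 0.06 in control, -0.75 ± 0.12 with HA155 and -0.11 ± 0.15 with LPA (SD, n = 3; exact permutation adjusted p = 0.0333). The difference shifted by 0.70 with LPA, in 3 of 3 LPA cultures, so Slc27a1 fell further than Slc27a4. The adjusted p rose to 0.05 without control culture 1 or HA155 culture 6 and to 0.0524 without HA155 culture 5, with shifts of 0.67, 0.70 and 0.70.

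**Figure D2:**
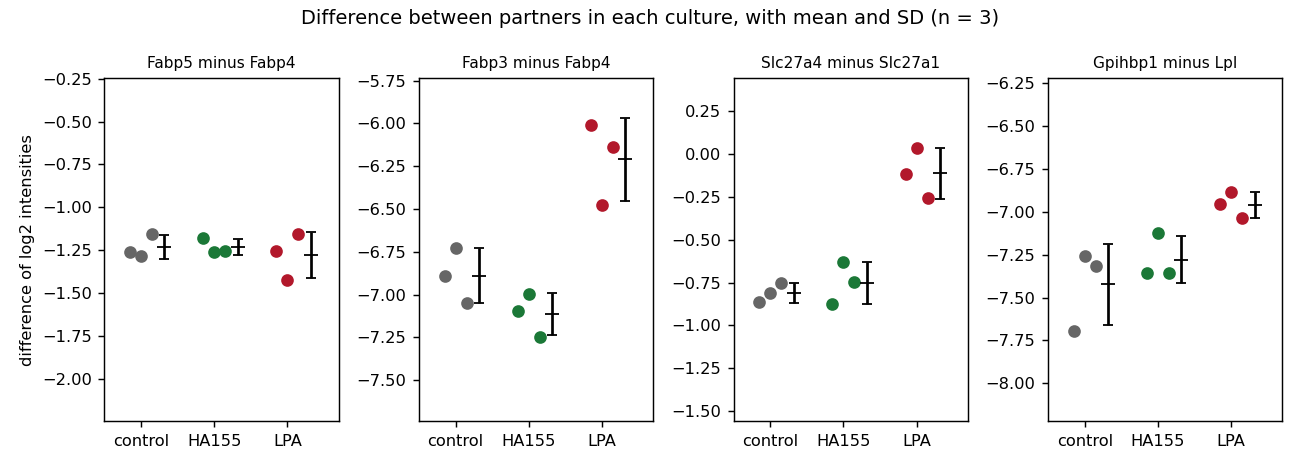
Difference of log2 intensities between partners in each culture (panels span 2 log2 units), with the mean and SD of each group beside its 3 points. Slc27a4 minus Slc27a1, Fabp3 minus Fabp4 and Gpihbp1 minus Lpl sit higher in all 3 LPA cultures than in any other, whereas Fabp5 minus Fabp4 overlaps between all groups.

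Fabp4 encodes the fatty acid binding protein of adipocytes and macrophages. Control cultures measured 12.75, 12.74 and 12.80, HA155 cultures 12.90, 12.87 and 13.00, and LPA cultures 11.96, 12.35 and 12.01. The LPA cultures were the 3 lowest, and LPA culture 8 was closest to the others. Fabp4 fell by 0.65 with LPA (SE 0.09, limma adjusted p = 0.000421) and by 0.78 without that array. With HA155 all 3 cultures lay above all 3 controls, where HA155 and control did not overlap for 16.8% of all genes tested. The difference of 0.16 did not pass (95% interval -0.04 to 0.37, limma adjusted p = 0.787).

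Fabp5 encodes the epidermal-type binding protein, which adipocytes and macrophages also make. It measured 11.49, 11.46 and 11.64 in control, 11.72, 11.61 and 11.74 with HA155, and 10.71, 10.92 and 10.85 with LPA. The LPA cultures again lay below all others. Fabp5 fell by 0.70 with LPA (SE 0.08, limma adjusted p = 6.51e-05) and by 0.75 without LPA array 8. With HA155 the difference was 0.16 (95% interval -0.01 to 0.33, adjusted p = 0.649). A further Fabp5 probe set gave -0.69 with LPA and 0.18 with HA155.

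Fabp4 and Fabp5 fell by similar amounts: their difference was -1.23 ± 0.07 in control, -1.23 ± 0.04 with HA155 and -1.28 ± 0.14 with LPA (SD, n = 3; exact permutation adjusted p = 0.857), and its shift with LPA, -0.05, became 0.03 without LPA array 8. A missed threshold does not show that they act alike. In the RefSeq gene order these genes are neighbours, with the protein-coding genes Pmp2 and Fabp9 of the same family between them. Those averaged 4.00 and 3.47 over the 9 arrays, below the testing level. In LPA culture 8, Fabp4 and Fabp5 were the highest of the 3 LPA values while Cd36, Lpl and Slc27a1 were the lowest, so the array that stood apart did not shift the genes in a common direction.

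Fabp3 encodes the heart-type binding protein, which brown fat in the cold is known to make in quantity. It measured 5.86, 6.01 and 5.75 in control, 5.80, 5.87 and 5.75 with HA155, and 5.95, 5.87 and 5.87 with LPA. The groups overlapped, just above the testing level of 5.59. The differences were 0.03 with LPA (95% interval -0.13 to 0.19, limma adjusted p = 0.84) and -0.06 with HA155 (-0.22 to 0.10, adjusted p = 0.948). Its other probe set averaged 5.40, below that level. RefSeq lists pseudogenes related to Fabp3 and to Fabp5, and which copy each probe set reads was not settled here, so both genes carry that uncertainty.

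In the other pairs 1 gene had no call with LPA and its partner fell. Fabp3 and Gpihbp1 lay close to the testing level, and how much of their signal is background was not measured. With no call for either gene, the shifts of these pairs largely repeat the falls of Fabp4 and Lpl and add no separate result. Fabp3 minus Fabp4 rose by 0.68 with LPA (exact permutation adjusted p = 0.0286, higher in 3 of 3 cultures), and the adjusted p was 0.05 without control culture 1 or HA155 culture 6. Gpihbp1 minus Lpl rose by 0.46 (adjusted p = 0.0333), a call kept only without control culture 2 among the fits that left out an array (adjusted p up to 0.0952).

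**Figure D3:**
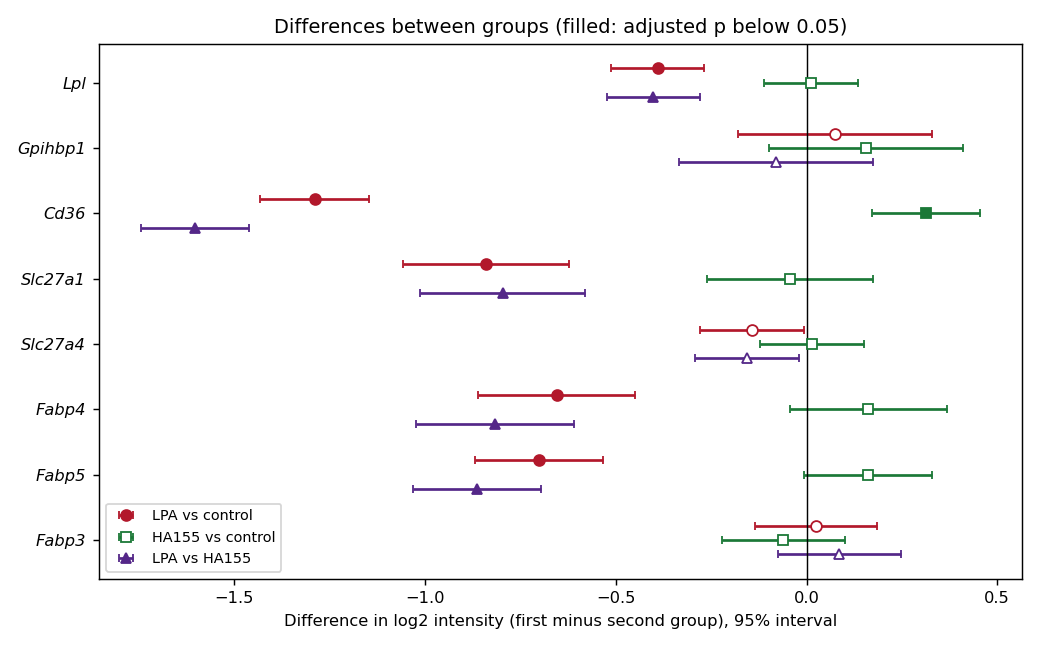
Differences in log2 intensity of the 8 genes with their 95% intervals from limma, for each of the 3 comparisons between groups; filled symbols passed at an adjusted p below 0.05. Cd36 has the largest fall with LPA and the only filled symbol for HA155, and the intervals of Gpihbp1 and Fabp3 include 0 in each comparison.

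Other genes that act on lipoproteins around the cell were mixed. Of 18 listed, 13 were tested with LPA, of which 4 fell (30.8%) and 2 rose (15.4%), with a median of -0.12. Of all genes tested 10.8% fell and 12.2% rose. Apoc1, a small lipoprotein-associated protein known to inhibit lipoprotein lipase, fell to 34% of control (log2 difference -1.56, limma adjusted p = 2.33e-07). Angptl8, an insulin-induced regulator of the lipase, fell to 42.4% (-1.24, adjusted p = 4.8e-06), from 8.80, 8.55 and 8.45 in control to 7.43, 7.43 and 7.24 with LPA. Scarb1, the high-density lipoprotein receptor, fell by 0.96 and Apoe, a ligand of lipoprotein receptors, by 0.61. The lipase inhibitor gene Angptl4 measured -0.12 and the lipase maturation factor gene Lmf1 -0.15, and neither passed. The genes that rose, named after their values were seen, were the endocytic receptor gene Lrp1 (0.54) and the convertase gene Pcsk6 (0.30), whose call was lost in 10 of 18 alternative fits, among them those without control array 2 or 3, any HA155 array, or LPA array 8 or 9.

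With HA155 the lipoprotein list had 1 call among 13 tested, where 1.03% of all genes tested were called. Vldlr, the very low density lipoprotein receptor that helps lipoprotein lipase work in fat, rose from 8.04, 8.01 and 7.76 to 8.39, 8.51 and 8.51. Its HA155 and control groups did not overlap, which held for 16.8% of all genes tested. The difference of 0.53 (SE 0.08, limma adjusted p = 0.00946) was called in 16 of 18 alternative fits, being lost without HA155 array 5 or 6 (adjusted p up to 0.0664). With LPA, Vldlr measured 0.22 (adjusted p = 0.0702). The list's median with HA155 was 0.00259.

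The other genes of transport across the membrane and activation split in both directions. Of 17 listed, 12 were tested with LPA, of which 3 fell (25%) and 3 rose (25%), with a median of -0.02. Among all genes tested 10.8% fell and 12.2% rose. The caveolin genes Cav2 and Cav1, which encode coat proteins of the membrane pits abundant in adipocytes, fell by 1.26 and 0.86 (limma adjusted p = 8.46e-07 and 6.02e-06), while the partner coat gene Cavin1 measured -0.20 and did not pass. Ffar4, a receptor for long-chain fatty acids, fell by 0.90. Slc27a6, a further fatty acid transport protein, rose by 1.17 (adjusted p = 2e-05), from 6.71, 6.70 and 6.76 in control to 7.66, 8.12 and 7.90 with LPA. The relative Slc27a3 rose by 0.42 and the acyl-CoA synthetase gene Acsl5 by 0.29, both named after their values were seen; Acsl5 was not called without control array 2 or without control array 3. Within the Slc27a family, then, LPA left 1 member lower (Slc27a1), 2 higher and Slc27a4 without a call, and Slc27a5 lay below the testing level. Slc27a2 of this family, and the listed synthetase genes Acsl1 and Acsl3, had no probe set that carries a single gene symbol. None of the 12 passed with HA155 in limma (1 at an unadjusted p below 0.05, median -0.02).

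The other intracellular lipid carriers that passed all fell with LPA. Of 18 listed, 9 were tested, of which 4 fell (44.4%, against 10.8% of all genes tested) and none rose, with a median of -0.04. Those that fell were the acyl-CoA binding protein gene Dbi (-0.64, limma adjusted p = 1.22e-05), the sterol carrier protein gene Scp2 (-0.76), Acbd4 (-0.47) and Acbd5 (-0.31). The 3 control arrays held a single value for Dbi, so its spread is understated. The other genes of the fatty acid binding proteins, Fabp1, Fabp2, Fabp6, Fabp7, Fabp9, Fabp12 and Pmp2, lay below the testing level. This leaves Fabp4 and Fabp5 as the fatty acid binding proteins measured well above it. The related genes Crabp1, Crabp2 and Rbp2 were tested (means over the 9 arrays 7.01, 5.94 and 5.74) and had no call with LPA. None of the 9 passed with HA155 in limma (2 at an unadjusted p below 0.05), where the median was 0.07 and Dbi measured 0.25 (adjusted p = 0.0721).

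Known transcriptional regulators of these genes moved in the same comparison. Of 13 listed, 11 were tested with LPA, of which 5 fell (45.5%) and 1 rose (9.09%), with a median of -0.18. The shares over all genes tested were 10.8% and 12.2%. Nr1h3, the lipid-sensing receptor LXRα, fell by 0.99 (limma adjusted p = 1.06e-05), Pparg, the adipocyte receptor whose targets include Cd36, Fabp4 and Lpl, by 0.46 (adjusted p = 0.000213), and Cebpa, its partner in adipogenesis, by 0.58. Cebpd, an early adipogenic factor, rose by 0.79 (adjusted p = 0.000644). The coactivator genes Ppargc1a and Ppargc1b completed the falls, at -0.60 and -0.68. Whether Pparg fell by less than its targets was not tested. With HA155 none of the 11 passed in limma (1 at an unadjusted p below 0.05), and Pparg measured 0.00282 (adjusted p = 0.997).

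**Figure D4:**
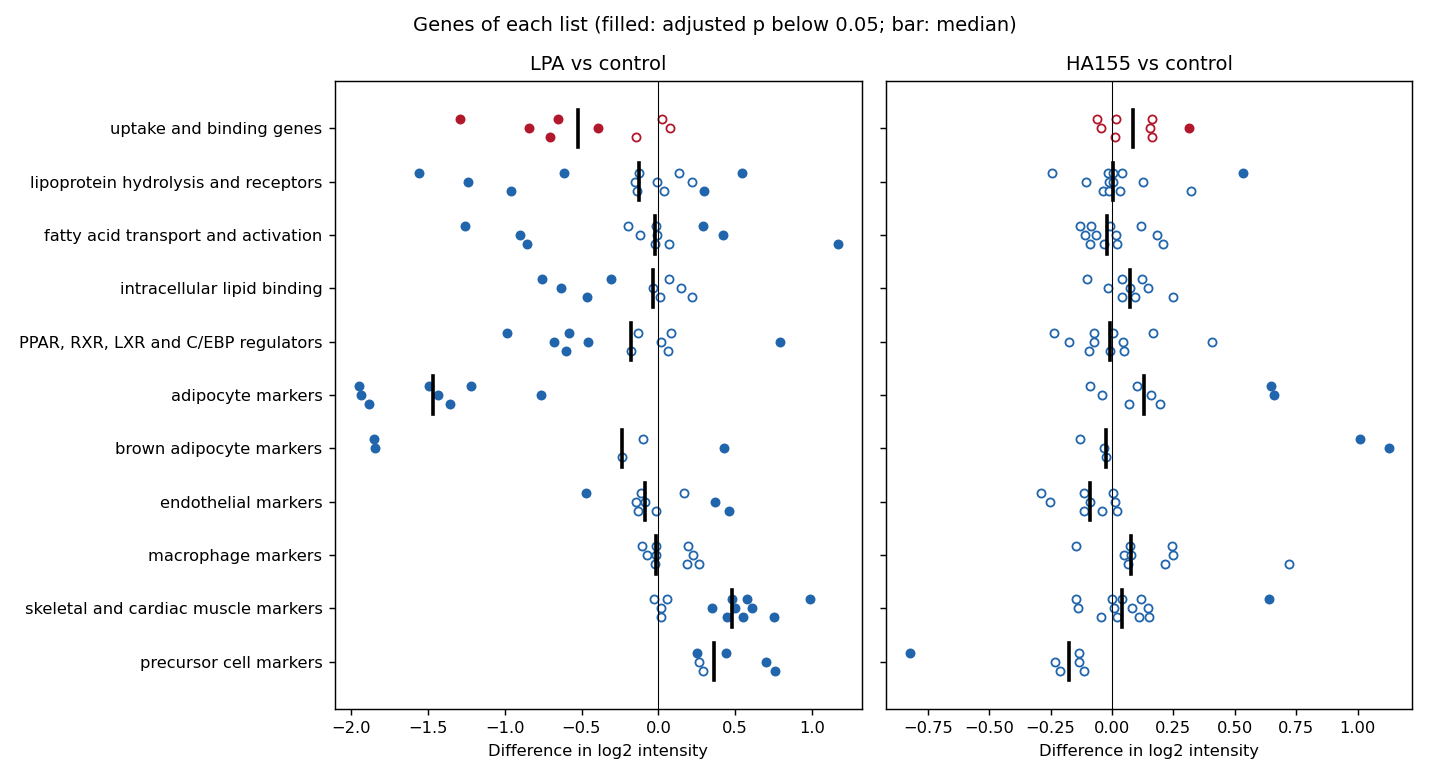
Differences in log2 intensity for every tested gene of each list, for LPA against control (left) and HA155 against control (right); filled symbols passed at an adjusted p below 0.05 and bars mark the list medians. With LPA the uptake and binding genes have a median of -0.52, between the adipocyte markers (-1.46) and the other lipid lists (-0.18 to -0.02).

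Markers of adipocytes fell beside the 5 genes. All 8 listed adipocyte markers fell with LPA, with a median of -1.46, where 10.8% of all genes tested fell. Their summed intensity was 16686 to 17607 in control, 17939 to 18907 with HA155 and 6141 to 6325 with LPA. Adipoq fell by 1.35 and Plin1 by 1.22, beside 1.29 for Cd36 and 0.39 for Lpl. Of 6 tested precursor markers 4 rose with LPA, Pdgfra (0.44), Pdgfrb (0.70), Thy1 (0.76) and Dlk1 (0.25), where 12.2% of all genes tested rose. The Dlk1 call was lost in 7 of 18 alternative fits, among them those without any 1 control array, LPA array 8 or LPA array 9. The summed intensity of the precursor markers was 6582 to 7027 in control and 8993 to 9686 with LPA. The part of the cell mixture in the falls of the 5 genes was not tested.

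With HA155, 2 of the 8 adipocyte markers rose beside Cd36, the lipid droplet gene Cidec (0.65) and the leptin gene Lep (0.66), as did Cox7a1 (1.13) and Cox8b (1.01) of 5 tested brown adipocyte markers. Of all genes tested 0.607% rose. The 3 control arrays held a single value for Cox7a1, so its spread is understated. Dlk1 was the precursor marker that fell (-0.82). Both Cox genes fell with LPA (-1.84 and -1.85), and Zic1 rose by 0.43, a call lost in 5 of 18 alternative fits, including those without control array 1 or 2 or LPA array 8 or 9. The part of these cell mixtures in the rise of Cd36 was not tested.

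Macrophages also make Fabp4, Fabp5, Cd36 and Lpl. Of 15 macrophage markers 6 lay below the testing level, among them Adgre1, the gene of the F4/80 antigen (control mean 5.53), and none of the 9 tested passed in limma with LPA (0 at an unadjusted p below 0.05, median -0.01) or with HA155 (2 at an unadjusted p below 0.05, median 0.08). Cd68 measured 0.19 with LPA and 0.22 with HA155. Their summed intensity was 963 to 1088 in control, 1199 to 1353 with HA155 and 972 to 1286 with LPA, higher with HA155 than in control. Lyz2, the brightest of the 15, weighs most in this sum and measured 0.72 with HA155 (limma adjusted p = 0.327). The higher sum with HA155 therefore does not show a rise across the list. The part of macrophages in the rise of Cd36 with HA155 was not tested.

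Muscle makes Fabp3 and Slc27a1 as well, and 9 of its 13 tested markers rose with LPA, where Slc27a1 fell. The summed intensity of the muscle markers was 1771 to 1941 in control, 1877 to 2006 with HA155 and 2418 to 2872 with LPA. Of 13 tested, 9 rose with LPA (median 0.48), where 12.2% of all genes tested rose. The rises were led by the myosin gene Myh1 (0.98) and the actin gene Actc1 (0.76). The others were Acta1, Tnnt2, Tnnt3, Tnnc2, Mb, Des and Ttn, between 0.35 and 0.61. No call was made for the other 4 tested: Ckm, Myh7, Myog (5.79 in control, 5.81 with LPA) and Myod1 (6.30 and 6.27). Myh2, Myh4 and Myh6 lay below the testing level. The calls of Tnnt3, Tnnc2 and Ttn were each lost without LPA array 8 or control array 3, that of Tnnc2 also without control array 1, and that of Ttn in 10 of 17 alternative fits, among them those without any 1 control or HA155 array. Their part in the Slc27a1 and Fabp3 values was not tested. With HA155 Myh1 rose by 0.64 and no other muscle marker passed.

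**Figure D5:**
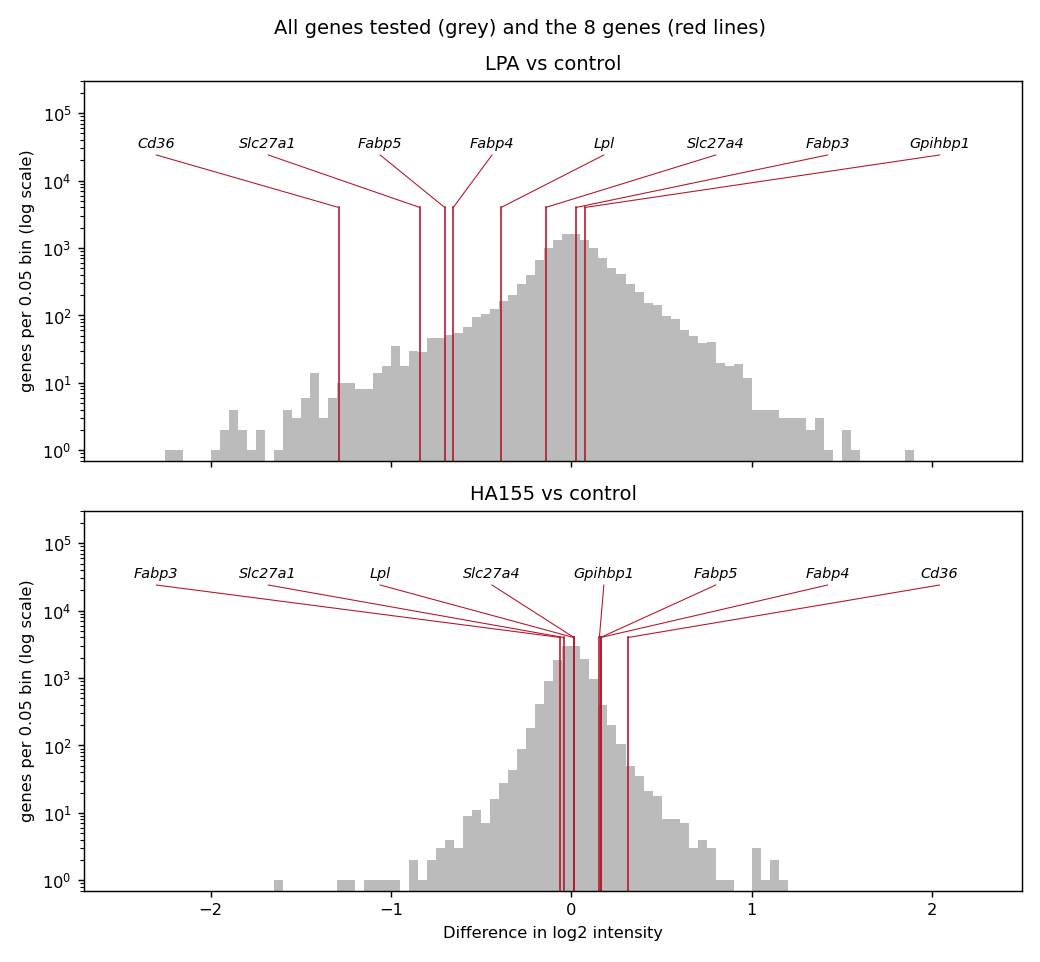
Number of genes per 0.05 of log2 difference (log scale) among the 13335 tested, for LPA against control (top) and HA155 against control (bottom), with the 8 genes as red lines. With LPA the 5 genes called lie in the lower tail, from -1.29 for Cd36 to -0.39 for Lpl, and with HA155 only Cd36 (0.31) stands beyond 0.2.

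The genes whose profile over the 9 arrays was nearest to each of 5 members were found by the root mean square difference of log2 values centred on each gene's mean, among 13327 other tested genes. Nearest to Cd36 were Ephx2 (0.06), the soluble epoxide hydrolase, Pex11a (0.06), which acts in peroxisome division, and Fam13a (0.06), where the median gene lay at 0.70. Nearest to Fabp4 were Scd1 (0.05), the fatty acid desaturase, Sod2 (0.06), the mitochondrial superoxide dismutase, and the kinase gene Sik2 (0.06). Fabp5 lay nearest to Cycs (0.04), which encodes cytochrome c, Cpt2 (0.06), which acts in mitochondrial fatty acid import, and Cox6a1 (0.06), a cytochrome oxidase subunit. Nearest to Lpl were Ddhd2 (0.03), a phospholipase, Nipsnap1 (0.04) and Apcdd1 (0.04). The neighbours of Gpihbp1, which had no call in any comparison, were Syt9, Ttc9b and Kif6 (0.05 to 0.07, against a median of 0.20). These distances describe the 9 arrays, which share treatments, and carry no test.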

How the data were processed

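Biotin-labelled total RNA from each culture was measured on Affymetrix arrays, per the labels' protocols. The authors deposited an intensity for every probe set on every array, with the RMA method, named per the submitters' processing notes (version not given in the sources used here). RMA evens out the arrays, which removes a global shift if there was one. Its output is normally log2; the linear scale was read from the values, and log2 was taken with no offset. Median intensity per array ran from 70.7 to 72.8.

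The platform annotation gives a single symbol to 21706 of 35432 probe sets, several to 1605 and lists no entry for 12121. The brightest was kept per gene, and genes averaging under 5.59 (intensity 48.2), the 40th percentile over probe sets, were not tested, which left 13335. limma 3.58.1 in R 4.3.3 was fitted to all 9 arrays in 3 groups (6 residual degrees of freedom, two-sided, Benjamini-Hochberg at 0.05). Subject numbers differ between groups, so none were paired. The labels name no batch; one that ran along with treatment cannot be told apart from it. On simulated data with 200 changed genes among 13335, the LPA comparison recovered 18.6%, 77.5% and 99.4% of log2 changes of 0.25, 0.5 and 1, and the HA155 comparison 19.9%, 74.0% and 98.2%. The simulation gave each gene 1 spread in all groups, whereas the median SD per gene was 0.107 with LPA and 0.054 with HA155. With LPA 23% of all genes tested were called, far more than were changed in the simulation. These rates are therefore not the power of either real comparison. A plain exact test of 3 against 3 cannot go below p = 0.1. The 8 genes and all lists were chosen with earlier results of these data known, so counts over them are descriptions. Named genes were the 8; of each list those called with HA155 and the 4 of smallest p with LPA; called markers with Adipoq, Plin1, Ucp1, Pecam1, Cdh5, Adgre1 and Cd68; and the 3 nearest profiles of 5 genes. Others, such as Angptl4, Lmf1, Cavin1, Ppargc1a, Kdr and Lyz2, were named after their values were seen. Alternatives changed the filter, probe set rule, scaling, offset, prior, array weights and arrays used.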

Additional observations from a re-analysis of the deposited data

How the results depend on the processing

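The count of 5 members lower with LPA, against control and against HA155, was 5 in each of 18 alternative fits, 9 of which left out an array. The count of 1 member higher with HA155 was 0 without the filter and after quantile normalization, and 0 to 1 when an array was left out. All genes called with HA155 numbered 138, but 86 without the filter, 338 with array quality weights and 39 to 235 when an array was left out. Reversals were all of values that had not passed. Fabp3 with HA155 measured 0.0228 over the mean of its probe sets, Lpl -0.0291 after quantile normalization and Slc27a4 -0.0052 with array weights. Over the fits that left out an array, Gpihbp1 with LPA ran from -0.0737 to 0.18 and Fabp3 from -0.0362 to 0.10. With HA155 the ranges were -0.12 to 0.0094 for Fabp3, -0.0009 to 0.032 for Lpl, -0.0926 to 0.0077 for Slc27a1 and -0.0054 to 0.0442 for Slc27a4. The shift of Fabp5 minus Fabp4 with LPA was 0.0055 after quantile normalization and -0.11 to 0.0262 when an array was left out. The other pair shifts kept their sign (0.58 to 0.81 for Fabp3 minus Fabp4, 0.62 to 0.77 for Slc27a4 minus Slc27a1, 0.33 to 0.55 for Gpihbp1 minus Lpl). The cause was not tested. Gpihbp1 and Fabp3 could not be tested with the filter at the 60th percentile. No paired analysis was possible because the groups share no subject numbers.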

Other observations

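Set against the mean of the 8 adipocyte markers in the same culture, each of the 8 genes lay higher with LPA than in control, a comparison chosen after the values were seen and given without a test. That mean fell by 1.50 with LPA, further than any of the 8 genes, so the higher values follow from the choice of reference. A gene without change also lies higher on this scale: Gpihbp1, which had no call, was higher by 1.58 and Fabp3 by 1.53. Relative to the marker mean Cd36 was higher by 0.21, Slc27a1 by 0.66, Fabp5 by 0.80, Fabp4 by 0.85 and Lpl by 1.11. No LPA culture overlapped a control culture for any of these 5, and the share of all genes for which this holds was not computed. With HA155 the marker mean was higher by 0.21, and relative to it Cd36 was higher by 0.10 while Lpl measured -0.20 and Slc27a1 -0.26. The order of the 5 genes called on this scale with LPA restates the size of their falls, with Cd36 falling most and Lpl least.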
